A study of Rattus norvegicus with 12 samples.

Results

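The potassium channel genes described here are protein-coding genes whose name begins with Kcn, 92 of the 22293 protein-coding genes among 32545 listed genes. Their levels were measured in 12 RNA-seq libraries as FPKM (fragments per kilobase of gene length, scaled by a total for each library). In 37 of them the mean FPKM over the 12 libraries was at least 0.5, and these were tested. The other 55 are described by their levels only. Myocardium was collected at postnatal day 7 (P7) from the free walls of the left and right ventricles (LV, RV) of SD (Sprague–Dawley) rats. At P1 the rats had undergone either a sham operation or a fistula between the abdominal aorta and the inferior vena cava, which returns arterial blood to the venous side and places the heart under volume overload (VO). Each of the 4 groups, sham LV and VO LV, sham RV and VO RV, was represented by 3 libraries. All rats were operated on, no gene was altered in any group, and each library holds RNA of a whole free wall with all its cell types. The labels give neither the sex of the animals nor which libraries came from the same heart, so the p values measure the spread between these libraries.

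Potassium channels let potassium ions leave the cell and return the heart muscle cell to its resting potential after each beat. Inward rectifiers hold the resting potential, voltage-gated channels end the action potential, two-pore channels carry background current, and calcium-activated channels open when calcium rises. Auxiliary subunits do not form a pore by themselves and change the gating or the surface level of the pore-forming subunits. The set of potassium channels in the ventricle is known to be remodelled around birth and in heart failure.

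The reads on genes numbered 14121713 to 16871371 per library. Cardiomyocyte transcripts were abundant in every library, and the summed FPKM of the 9 listed cardiomyocyte markers was 18742 to 29877.5. Markers of skeletal muscle and fat summed to at most 0.190 and 0.122 FPKM. The library closest to each one by correlation of log2 levels over the 13910 tested genes was of another group for 8 of the 12 libraries (r = 0.969 to 0.980). Sham LV replicates 1 and 2 were closest to VO RV replicate 3, and the latter to sham LV replicate 1. Whether any library was exchanged was not tested. Atrial transcripts set 2 libraries apart. The atrial transcript Sln was at 97.7 FPKM in sham RV replicate 1 and at 388 FPKM in VO RV replicate 2, against at most 0.678 FPKM in the other 10 libraries, and the atrial transcript Bmp10 was at 12.6 and 72.4 FPKM in those same libraries. Whether they hold atrial tissue was not tested. Transcripts of Y-linked genes were present in replicates 1 and 2 of sham LV, replicates 1 and 2 of sham RV and replicate 3 of VO RV, and reached at most 0.0343 FPKM in the other 7 libraries. VO RV therefore had 1 such library and VO LV had 0, while the sham groups had 2 each.

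The promoters of 3 members are shown: Kcnj2 because it was called in both comparisons that gave calls, Kcng2 because it had the highest level, and Kcnj8, which was called in none, because its sham LV libraries lay above all others. Each sequence is the 250 bases before the start of transcription in RefSeq (GRCr8), read 5′ to 3′ on the strand of the gene. The windows are chr10:96559975-96560224 (plus strand) for Kcnj2, chr18:76083689-76083938 (minus strand) for Kcng2 and chr4:177246549-177246798 (minus strand) for Kcnj8. Capitals mark matches, on either strand, to the 6 motifs searched: the GC box GGGCGG, the CCAAT box CCAAT, the TATA box TATAAA, the GATA motif GATAA, the E-box CACGTG and the core TGACG of the cyclic AMP response element.
Kcnj2: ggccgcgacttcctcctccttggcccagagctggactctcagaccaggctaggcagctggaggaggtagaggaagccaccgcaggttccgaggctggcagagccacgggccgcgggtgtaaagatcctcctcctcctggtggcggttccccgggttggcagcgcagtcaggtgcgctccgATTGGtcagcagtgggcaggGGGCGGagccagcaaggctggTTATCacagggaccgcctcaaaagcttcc
Kcng2: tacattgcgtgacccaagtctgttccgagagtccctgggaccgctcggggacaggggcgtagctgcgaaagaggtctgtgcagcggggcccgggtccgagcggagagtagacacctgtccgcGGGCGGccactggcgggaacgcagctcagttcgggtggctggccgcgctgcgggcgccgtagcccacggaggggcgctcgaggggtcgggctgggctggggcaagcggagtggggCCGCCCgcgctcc
Kcnj8: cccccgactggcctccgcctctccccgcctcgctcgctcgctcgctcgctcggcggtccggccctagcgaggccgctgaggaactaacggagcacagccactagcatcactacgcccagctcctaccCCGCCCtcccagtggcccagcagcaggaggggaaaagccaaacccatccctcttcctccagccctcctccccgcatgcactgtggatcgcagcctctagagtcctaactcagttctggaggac
The Kcnj2 window held an inverted CCAAT box at −70, a GC box at −50 and an inverted GATA motif at −29 relative to the start site. In the Kcng2 window there were GC boxes at −128 and −13, and in the Kcnj8 window 1 GC box at −123. The windows were rich in G and C, with 66.0%, 72.8% and 66.8% for Kcnj2, Kcng2 and Kcnj8. RefSeq promoters matched 61 of the 92 genes and 25 of the 37 tested genes, 2 of which (Kcns3 and Kcnk2) had more than 1 promoter. Among those 25 genes, the GC box was found in 12, the GATA motif in 7, the core of the cyclic AMP response element in 6, the CCAAT box in 4, the E-box in 1 and the TATA box in 0. The shares over all 33469 promoters of this length were 30.5%, 23.5%, 18.2%, 34.0%, 5.59% and 12.9%, in the same order. No motif overlapped another in the 3 windows shown, and a match describes the letters only.

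The level of the 37 tested genes spanned 204-fold. Kcng2 alone, which encodes a silent voltage-gated subunit that works only in complex with other voltage-gated subunits, made up 32.6% of the summed FPKM of the 92 genes. It was followed by the two-pore channel Kcnk3 (mean 33.8 FPKM), the delayed rectifier Kcnh2 (28.4), the pore subunits of the ATP-sensitive channel Kcnj11 (25.8) and Kcnj8 (23.3), the slow delayed rectifier Kcnq1 (15.9) and the auxiliary subunit Kcne5 (10.4). No other gene reached a mean of 10 FPKM besides these 7, and 28 of the 37 reached 1 FPKM. The summed FPKM of the 92 genes was 277 ± 10.6 in LV after sham and 352 ± 6.85 under VO, and 345 ± 11.8 in RV after sham and 285 ± 37.2 under VO (SD, n = 3 each). The sums of sham LV (268 to 289) lay below those of sham RV (333 to 357) and VO LV (345 to 359), and those of VO RV (251 to 325) overlapped sham LV only.

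Members near the limit of testing were Kcnmb2 at a mean of 0.502 FPKM and Kcnv2 at 0.615 just inside, and the two-pore channels Kcnk5 at 0.479 and Kcnk13 at 0.435 just outside. Of the 55 genes outside, 10 were above 0 in every library and 16 averaged 0.1 FPKM or more. Kcnk9, Kcnh5, Kcna1 and Kcnf1 were listed at 0 in all 12 libraries. All 4 Shaw-type voltage-gated subunits (Kcnc1 to Kcnc4) were among the 55, with mean FPKM of 0.0115 to 0.146. The large-conductance calcium-activated pore Kcnma1 had a mean of 0.0828 FPKM, while its auxiliary subunit Kcnmb4 had one of 6.26. Kcnk6 was listed under 2 gene identifiers, both below the limit.

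The first comparison asked which potassium channel genes differed between the ventricles without overload. Called genes (DEGs) needed an adjusted p under 0.05 in limma, with Benjamini-Hochberg adjustment over 13910 genes, and a fold change over 1.3. Sham LV and sham RV differed in 2 of the 37 members (5.41%), Kcnj2 and Kcnj12, both lower in sham LV. Over all tested genes 3.85% were DEGs in this comparison, and 2.35% were DEGs lower in sham LV. With the same fold change and p under 0.05 before adjustment (the unadjusted threshold), 11 members were lower in sham LV (29.7%, against 9.63% of all genes) and 2 were higher (against 8.19% of all genes). The libraries of the groups did not overlap in 19 members, 13 lower and 6 higher in sham LV (51.4%, against 32.2% of all genes). The median log2 difference was −0.07 over the members and 0.01 over all genes. In bulk tissue, fewer cells of a type and less RNA per cell cannot be told apart.

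Kcnj2 and Kcnj12 encode the pore subunits of the strong inward rectifier that sets the resting potential of ventricular muscle. In LV, Kcnj2 was at 1.78, 2.28 and 2.45 FPKM after sham surgery and at 5.45, 5.71 and 8.899 under VO, and in RV at 9.16, 8.06 and 6.61 and at 5.32, 3.52 and 2.5003. All sham LV values lay below all others, the sham RV and VO LV libraries overlapped, and the VO RV libraries lay between sham LV and sham RV. Sham libraries had Kcnj12 at 3.87, 3.62 and 4.11 FPKM in LV and 12.01, 9.39 and 8.24 in RV, and VO libraries at 9.61, 7.77 and 11.8 in LV and 6.94, 5.81 and 3.38 in RV. The order of the groups was the same, except that VO RV replicate 3 lay below the lowest sham LV library. Kcnj2 was 3.16-fold lower in sham LV relative to sham RV (log2 difference −1.66 ± 0.24 SE, limma adjusted p = 0.0319), and Kcnj12 was 2.36-fold lower (−1.24 ± 0.23, adjusted p = 0.0325). The exact permutation p was 0.1 for both, the smallest that 3 against 3 libraries allow. Among the 37 members by mean level, Kcnj2 ranked 16 in sham LV, 10 in sham RV and VO LV and 12 in VO RV. Together Kcnj2 and Kcnj12 summed in LV to 6.03 ± 0.469 FPKM after sham and 16.4 ± 3.80 under VO, and in RV to 17.8 ± 3.18 and 9.16 ± 3.19 (SD, n = 3 each).

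Neither call was left when sham LV replicate 1 or 2, sham RV replicate 1 or 2, or VO LV replicate 2 was omitted, while omission of VO RV replicate 1, 2 or 3 gave 5, 5 or 7 called members (13.5%, 13.5% and 18.9%, against 3.77%, 5.18% and 6.25% of all genes under the same omissions). In the 5 omissions without a called member, at most 5 of 13910 genes were called. Over these omissions the log2 difference of Kcnj2 stayed between −1.78 and −1.55 and its adjusted p in limma lay between 0.0121 and 0.121. Without both libraries that held Sln the log2 differences were −1.56 for Kcnj2 and −1.09 for Kcnj12 (adjusted p = 0.108 and 0.111 in limma), and neither was called. With the Y-linked level in the model both were called, at −1.66 and −1.24 (adjusted p = 0.0335 for both in limma).

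**Figure D1:**
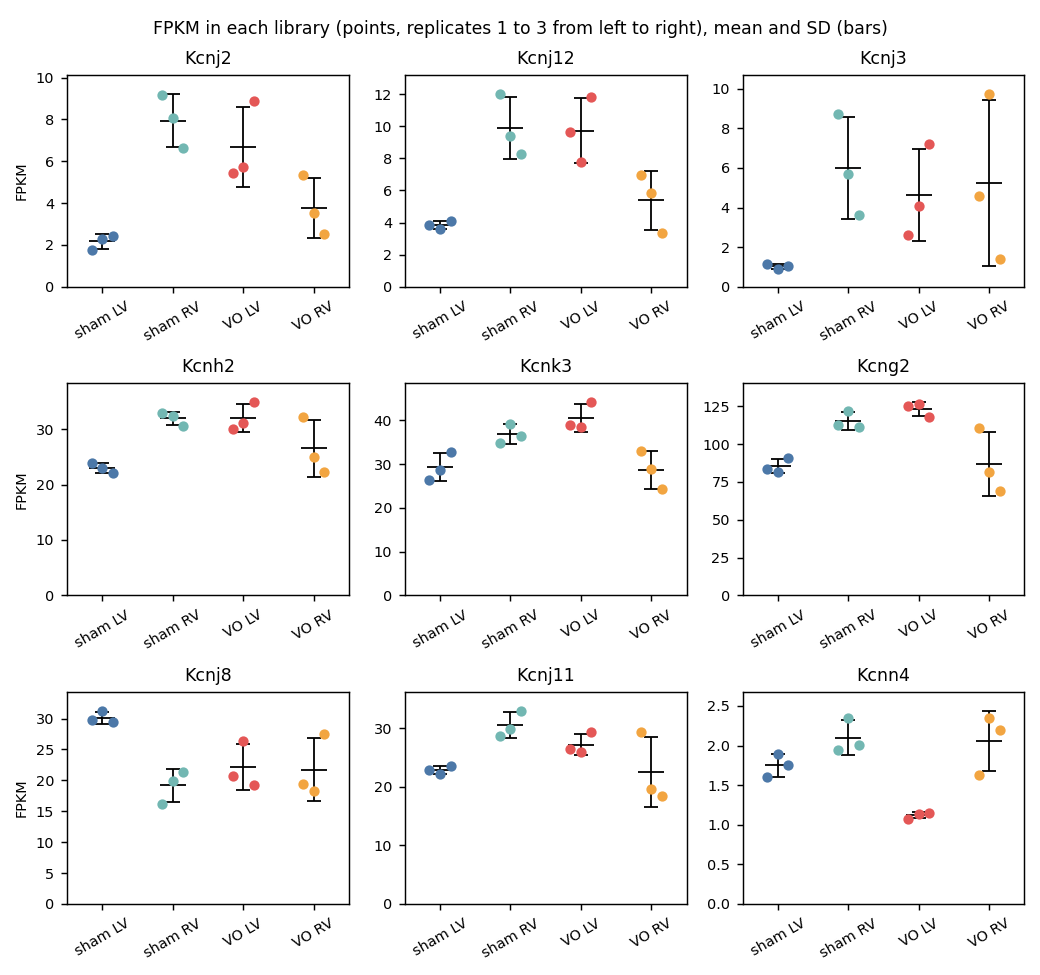
FPKM of 9 potassium channel genes in the 4 groups. Points are libraries, horizontal bars are means and error bars are SD (n = 3 per group), and each vertical axis is linear and starts at 0. For Kcnj2 the sham LV libraries (1.78 to 2.45 FPKM) sit below all others, for Kcnj8 they sit above all others (29.4 to 31.2 FPKM), and for Kcnn4 the VO LV libraries (1.08 to 1.15 FPKM) sit below all others.

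The subunits of the acetylcholine-activated inward rectifier, Kcnj3 and Kcnj5, are known to be stronger in atrial than in ventricular muscle. FPKM of Kcnj3 were 1.14, 0.911 and 1.07 in sham LV against 2.61, 4.09 and 7.18 in VO LV, and 8.72, 5.71 and 3.61 in sham RV against 4.59, 9.74 and 1.399 in VO RV. Sham LV was uniformly low and the other groups varied widely, with the highest values in the libraries that also held Sln, namely VO RV replicate 2 and sham RV replicate 1. For Kcnj5, replicates 1 to 3 gave 5.68, 5.18 and 5.78 FPKM in sham LV and 7.46, 6.803 and 9.19 in VO LV, then 10.5, 9.18 and 8.43 in sham RV and 7.34, 10.7 and 5.83 in VO RV. Again the sham LV values lay below those of all sham RV and VO LV libraries. Kcnj3 was 4.02-fold lower in sham LV relative to sham RV (log2 −2.01 ± 0.53 SE, adjusted p = 0.0549 in limma) and Kcnj5 1.63-fold lower (−0.70 ± 0.19, adjusted p = 0.0559), and neither was a DEG. With both libraries that held Sln left out, the log2 differences were −1.72 for Kcnj3 (adjusted p = 0.119 in limma) and −0.62 for Kcnj5 (adjusted p = 0.111). Over the 7 listed atrial markers, the summed FPKM was 724 to 1173 in LV after sham and 907 to 1742 under VO, and 226 to 1081 in RV after sham and 266 to 4576 under VO. Nppa alone was at 519 to 951 FPKM in LV after sham and 610 to 1423 under VO. In RV it was at 64.2 to 625 after sham and 73.3 to 3037 under VO. Sln and Bmp10 reached at most 0.623 and 0.140 FPKM in the LV libraries, so the sums do not follow these 2 transcripts.

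Kcnj11 and Kcnj8 form the pore of channels that ATP closes, the former mainly in heart muscle and the latter known from vascular smooth muscle and pericytes. The LV values of Kcnj8 were 29.7, 31.2 and 29.4 FPKM after the sham operation and 20.8, 26.4 and 19.3 under VO, and its RV values were 16.2, 19.9 and 21.4 and 19.5, 18.2 and 27.5. The 3 sham LV libraries were the highest of all. In LV, Kcnj11 was at 22.8, 22.1 and 23.5 FPKM after sham surgery and at 26.4, 25.9 and 29.4 under VO, and in RV at 28.6, 29.98 and 32.99 and at 29.4, 19.7 and 18.4. Here sham LV was below sham RV and VO LV, and VO RV was split, with replicate 1 among the sham RV values and replicates 2 and 3 below every other library. Kcnj8 was 1.56-fold higher in sham LV than in sham RV (log2 0.65 ± 0.16 SE, adjusted p = 0.0508 in limma), and Kcnj11 was 1.33-fold lower (−0.41 ± 0.15, adjusted p = 0.112). The ratio of Kcnj11 to Kcnj8 was on average 0.759 in sham LV (0.709 to 0.801) and 1.26 in VO LV (0.981 to 1.52), and 1.60 in sham RV (1.51 to 1.76) and 1.09 in VO RV (0.669 to 1.51). Their sum averaged 44.2 to 52.9 FPKM over the 4 groups. Endothelial markers moved with Kcnj8: 3 of the 6 tested were DEGs higher in sham LV, none of the 6 was near 0 in any library, and their summed FPKM was 486 to 535 in LV after sham and 381 to 424 under VO, and 337 to 372 in RV after sham and 351 to 442 under VO. The 8 mural markers summed to 936 to 1100 in LV after sham and 1096 to 1154 under VO, with no DEG. In RV they summed to 998 to 1021 after sham and 932 to 1035 under VO. Des alone was at 392 to 460 FPKM in sham LV and 537 to 586 in sham RV. The median log2 difference of the 8 between sham LV and sham RV was 0.28. The part of endothelial and mural cells in the Kcnj8 values was not tested.

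Voltage-gated delayed rectifiers and their silent partners repolarise the heart muscle cell. Sham libraries had Kcnh2 at 23.9, 22.9 and 22.1 FPKM in LV and 32.9, 32.4 and 30.6 in RV, and VO libraries at 30.05, 31.2 and 34.8 in LV and 32.3, 25.01 and 22.3 in RV. The values of Kcnh2, the pore of the rapid delayed rectifier, were all lower in sham LV relative to sham RV and VO LV. FPKM of Kcng2 were 83.6, 81.7 and 90.8 in sham LV against 125, 126 and 118 in VO LV, and 113, 122 and 111 in sham RV against 110.4, 81.8 and 68.95 in VO RV. Kcng2, the silent subunit, was likewise lower in every sham LV than in every sham RV and VO LV library. Kcnh2 was 1.38-fold lower in sham LV relative to sham RV (log2 −0.47 ± 0.12 SE, limma adjusted p = 0.0508) and Kcng2 1.35-fold lower (−0.43 ± 0.14, 0.0881), both above the threshold. For Kcnq1, replicates 1 to 3 gave 15.003, 9.77 and 14.7 FPKM in sham LV and 18.004, 18.4 and 18.6 in VO LV, then 18.1, 18.6 and 15.8 in sham RV and 17.1, 12.5 and 13.9 in VO RV. The slow delayed rectifier Kcnq1 was lower in every sham LV than in every VO LV or sham RV library, and sham LV replicate 2 was the lowest of all. Its sham difference was −0.42 ± 0.16 (adjusted p = 0.126 in limma). Its auxiliary subunit Kcne1 was low, with 0.2296 to 1.81 FPKM over the 12 libraries, and the highest value was in VO RV replicate 2.

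Kcnk3 and Kcnk2 are two-pore channels that carry background current. The LV values of Kcnk3 were 26.4, 28.7 and 32.7 FPKM after the sham operation and 38.9, 38.6 and 44.1 under VO, and its RV values were 34.7, 39.3 and 36.4 and 32.9, 28.8 and 24.4. Kcnk3 was lower in every sham LV than in every sham RV library, but the log2 difference was small (−0.33 ± 0.12, adjusted p = 0.116 in limma). In LV, Kcnk2 was at 1.41, 1.92 and 1.25 FPKM after sham surgery and at 2.11, 1.76 and 3.25 under VO, and in RV at 3.85, 2.73 and 2.202 and at 2.34, 3.25 and 1.57. Kcnk2, which responds to stretch, was 1.67-fold lower in sham LV relative to sham RV (−0.74 ± 0.27, adjusted p = 0.113 in limma).

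The transient outward current gives the early notch of the action potential and is carried by Shal-type pores with the auxiliary subunit Kcnip2, and by Kcna4. Sham libraries had Kcnip2 at 1.42, 0.819 and 2.15 FPKM in LV and 1.96, 5.74 and 2.08 in RV, and VO libraries at 2.42, 3.48 and 2.17 in LV and 2.097, 1.001 and 0.939 in RV. Kcnip2 had 1 value far above the rest, in sham RV replicate 2. FPKM of Kcnd3 were 1.99, 1.97 and 1.97 in sham LV against 1.63, 1.68 and 1.51 in VO LV, and 1.82, 2.23 and 2.34 in sham RV against 3.29, 2.06 and 2.73 in VO RV. The Shal-type pore Kcnd3 was nearly equal in the 3 sham LV libraries and lowest in VO LV. For Kcna4, replicates 1 to 3 gave 1.497, 1.22 and 2.35 FPKM in sham LV and 2.33, 2.58 and 2.44 in VO LV, then 3.001, 2.43 and 2.82 in sham RV and 2.96, 1.66 and 1.91 in VO RV. Kcna4 was lower in every sham LV than in every sham RV library (log2 −0.60 ± 0.21, adjusted p = 0.112 in limma). The LV values of Kcna5 were 3.27, 3.72 and 3.43 FPKM after the sham operation and 2.496, 4.03 and 2.88 under VO, and its RV values were 2.31, 1.95 and 2.12 and 2.26, 6.16 and 2.25. Kcna5, a Shaker-type pore that is prominent in atrial muscle, was highest in VO RV replicate 2, the library with the most Sln, and was higher in every sham LV than in every sham RV library without passing the unadjusted threshold.

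Among calcium-activated channels, the auxiliary subunit Kcnmb4 was 1.38-fold higher in sham LV than in sham RV (log2 0.46 ± 0.16, adjusted p = 0.104 in limma). In LV, Kcnmb4 was at 6.77, 7.45 and 7.69 FPKM after sham surgery and at 6.13, 7.68 and 6.001 under VO, and in RV at 4.59, 5.69 and 5.21 and at 7.21, 4.46 and 6.23. Its sham LV libraries lay above all sham RV libraries. Sham libraries had Kcnn4 at 1.61, 1.89 and 1.75 FPKM in LV and 1.94, 2.35 and 2.001 in RV, and VO libraries at 1.08, 1.13 and 1.15 in LV and 1.63, 2.35 and 2.199 in RV. The intermediate-conductance pore Kcnn4 was lowest in VO LV, and the 3 VO LV libraries did not overlap any other. Kcnn2, a small-conductance pore, lay between 1.11 and 1.94 FPKM in all 12 libraries.

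**Figure D2:**
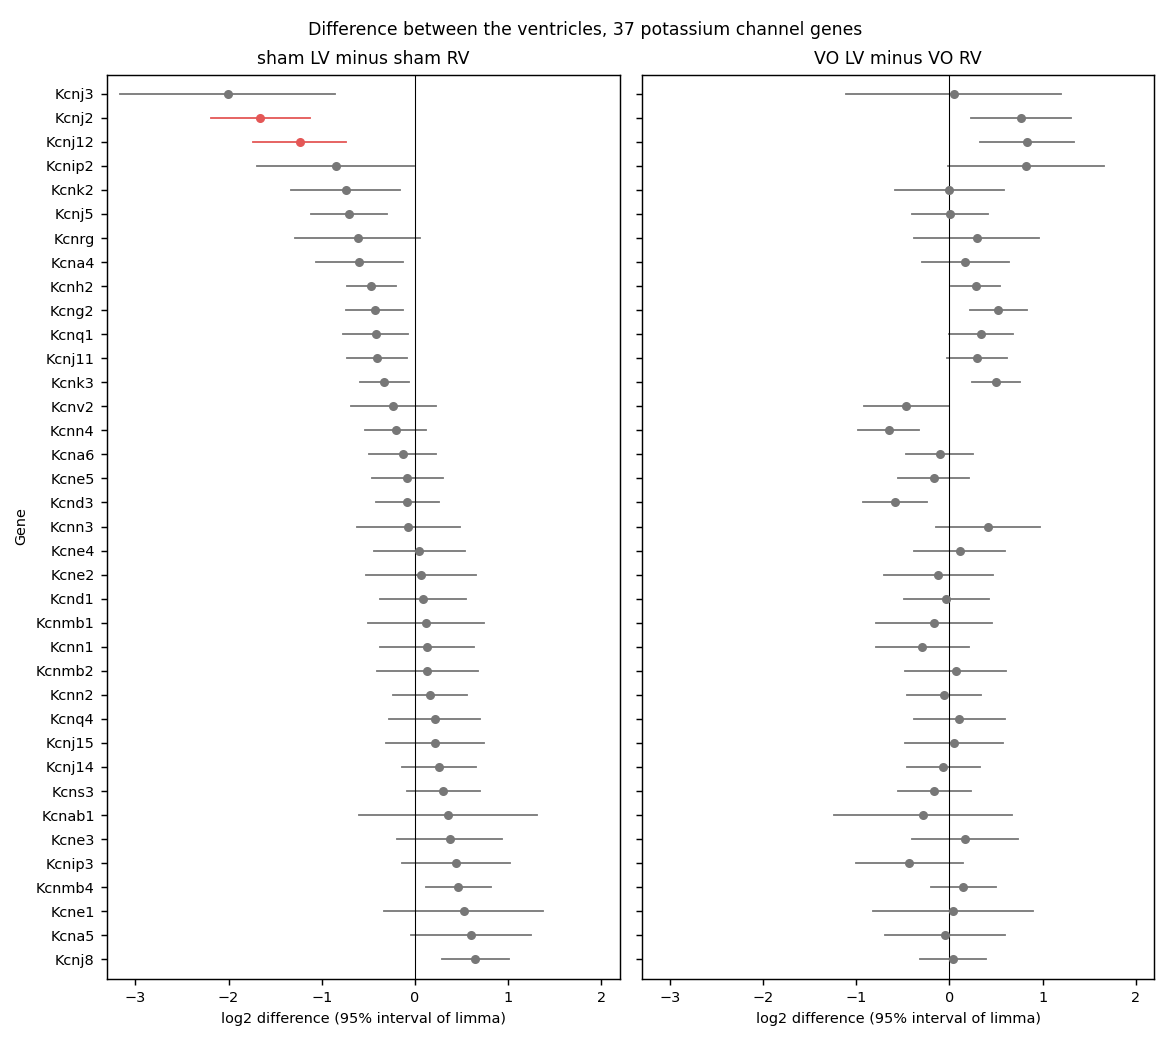
Difference in log2(FPKM + 0.5) between LV and RV for the 37 members, in sham hearts on the left and in VO hearts on the right, with the 95% interval from limma. Genes are in the same order in both panels, sorted by the sham difference, and red marks DEGs. Kcnj2 is at −1.66 in sham and at 0.77 under VO, and no member is a DEG under VO.

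Under VO the LV libraries were compared with sham LV. No member was a DEG, against 0.0935% of all genes (13 of 13910). At the unadjusted threshold, 8 members were higher in VO LV (21.6%, against 9.27% of all genes) and 3 were lower (8.11%, against 6.44%). The groups did not overlap in 17 members, 10 higher and 7 lower in VO LV (45.9%, against 32.4% of all genes). The median log2 fold change was 0.02 over the members and −0.02 over all genes. By voom on the recovered reads, 2 members were called (5.41%, against 2.44% of all genes), Kcnj2 and Kcnj12, both higher in VO LV. This comparison shares the sham LV libraries with the sham comparison.

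Kcnj2 was 2.65-fold higher in VO LV than in sham LV (log2 1.41 ± 0.24 SE, adjusted p = 0.0514 in limma) and Kcnj12 2.32-fold higher (1.21 ± 0.23, 0.0519), just above the threshold. Kcng2 (0.53 ± 0.14), Kcnh2 (0.47 ± 0.12) and Kcnk3 (0.47 ± 0.12) had smaller log2 differences with adjusted p of 0.0702 to 0.0718 in limma. Kcnj3 had the largest log2 difference among the members, 1.64 ± 0.53, with an adjusted p of 0.107 in limma, and Kcnq1 (0.49 ± 0.16) and Kcnj5 (0.45 ± 0.19) completed the 8. The lower genes were Kcnn4 (−0.47 ± 0.15), Kcnj8 (−0.44 ± 0.16) and Kcns3 (−0.47 ± 0.18), with adjusted p of 0.105, 0.144 and 0.1502 in limma. FPKM of Kcns3 were 2.83, 3.38 and 2.96 in sham LV against 2.32, 2.03 and 1.85 in VO LV, and 2.64, 1.73 and 2.87 in sham RV against 2.11, 2.12 and 2.91 in VO RV. Kcns3, another silent subunit, was lower in every VO LV than in every sham LV library.

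The outcome depended on which libraries entered. Without VO RV replicate 3, which is not part of the comparison but enters the shared estimate of spread, 6 members were DEGs (16.2%, against 3.98% of all genes), among them Kcnj2 (adjusted p = 0.0152 in limma) and Kcnj12 (adjusted p = 0.0139). Without VO RV replicate 1 or sham LV replicate 3 the number was 4 or 2 (10.8% and 5.41%, against 1.25% and 2.21% of all genes), and it was 0 without any other library, with 0 to 13 of 13910 genes called. Over all 12 omissions the log2 difference stayed between 1.20 and 1.53 for Kcnj2 and between 1.07 and 1.36 for Kcnj12, with adjusted p of 0.0152 to 0.249 and 0.0139 to 0.249 in limma. All VO LV libraries and 1 of 3 sham LV libraries lacked Y-linked transcripts. With the mean level of the Y-linked genes in the model, the log2 difference was 1.29 for Kcnj2 and 1.09 for Kcnj12 (adjusted p = 0.275 for both in limma). Among libraries without Y-linked transcripts, Kcnj2 was at 2.45 FPKM in the single sham LV library and at 5.45 to 8.90 in VO LV.

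In the RV, VO was set against sham and 0 of 13910 genes were DEGs (0%), members included. By voom on the recovered reads, 0 members were called, against 0% of all genes. The unadjusted threshold was passed by 683 genes in limma. Of the members, 5 were lower in VO RV (13.5%, against 3.06% of all genes) and 0 were higher (against 1.85% of all genes). The groups did not overlap in 4 members, Kcng2, Kcnk3, Kcnj12 and Kcnj2, all lower in VO RV (10.8%, against 12.5% of all genes in either direction). The median log2 fold change was −0.03 over the members and 0.0029 over all genes.

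The 5 members were Kcnj2 (−1.02 ± 0.24 SE on the log2 scale), Kcnj12 (−0.85 ± 0.23), Kcnj11 (−0.46 ± 0.15), Kcng2 (−0.43 ± 0.14) and Kcnip2 (−0.94 ± 0.38). Their adjusted p in limma ranged from 0.528 to 0.579. VO RV replicate 3 had the lowest value of the VO RV group in Kcnj2, Kcnj12, Kcnj11, Kcng2 and Kcnip2. Without it the log2 difference of Kcnj2 was −0.79 and that of Kcnj12 was −0.58, and the number of members past the unadjusted threshold was 3 (8.11%, against 2.9% of all genes). Without VO RV replicate 1 that number was 11 (29.7%, against 8.36%). Without both libraries that held Sln the log2 difference was −0.90 for Kcnj2, −0.79 for Kcnj12 and −1.05 for Kcnip2, each with an adjusted p of 0.785 in limma. With the Y-linked level in the model it was −1.08, −0.92 and −1.003, with adjusted p of 0.429, 0.429 and 0.477 in limma. VO RV replicate 3 is the library that was closest to sham LV replicate 1 over all tested genes (r = 0.979).

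**Figure D3:**
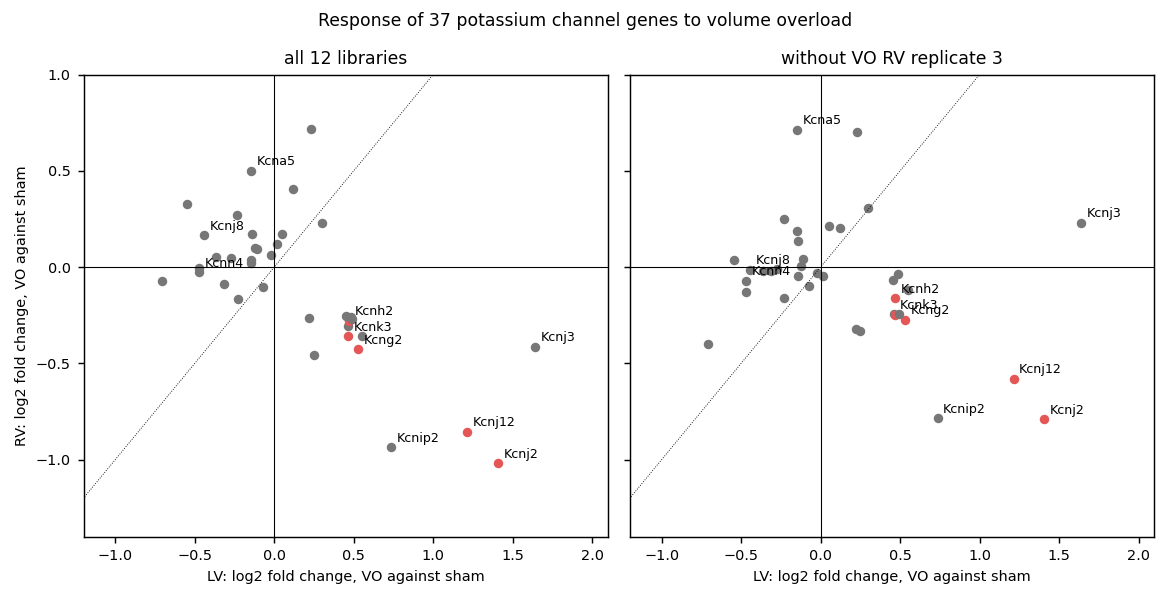
Response to VO of the 37 members, with the log2 fold change in LV on the horizontal axis and that in RV on the vertical axis, for all 12 libraries on the left and without VO RV replicate 3 on the right. The dotted line marks equal responses, and red points are the 5 members whose responses differed between the ventricles in limma over all 12 libraries. Kcnj2 lies at 1.41 in LV and −1.02 in RV on the left, and at 1.41 and −0.79 on the right.

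Whether the 2 ventricles responded differently was tested as the LV response minus the RV response, which uses all 12 libraries and therefore shares libraries with each comparison above. In 5 of 37 members (13.5%) the difference passed the test, and in all 5 the LV response was the higher. Over all genes 4.19% passed in either direction and 3.46% with a higher response in LV. At the unadjusted threshold the counts were 11 members with a higher and 3 with a lower response in LV (29.7% and 8.11%, against 13.1% and 9.94% of all genes). The median of this difference was −0.11 over the members and −0.04 over all genes.

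The largest difference was that of Kcnj2, 2.43 ± 0.35 SE on the log2 scale (adjusted p = 0.0249 in limma), made up of a log2 fold change of 1.41 in LV and −1.02 in RV. Kcnj12 followed with 2.07 ± 0.32 (adjusted p = 0.0249 in limma), from 1.21 in LV and −0.85 in RV. Both genes of the strong inward rectifier therefore showed the widest separation of the responses among the called members. The silent subunit Kcng2 gave 0.96 ± 0.20 (adjusted p = 0.0319 in limma). Kcnk3 differed by 0.83 ± 0.17 and Kcnh2 by 0.75 ± 0.17 (adjusted p = 0.0319 and 0.0383 in limma). In all 5 the VO LV mean was above the sham LV mean and the VO RV mean below the sham RV mean.

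Some but not all markers of cell types also differed in their response between the ventricles. Of the 9 tested cardiomyocyte markers 3 were called, all with the higher response in LV: the myosin heavy chains Myh6 (log2 0.89) and Myh7 (1.18) and the calcium release channel Ryr2 (1.61), with adjusted p of 0.0319, 0.0249 and 0.0249 in limma. The other 6 ranged from −0.51 for Tnni3 to 0.48 for Actc1, with Tnni3, Tnnt2 (−0.24) and Myl3 (−0.05) below 0, and their adjusted p in limma was 0.263 to 0.929. The median over the 9 was 0.31, none of them was near 0 in any library, and their summed FPKM was 26236 to 28064 in LV after sham and 27105 to 29877.5 under VO, and 22871 to 26731 in RV after sham and 18742 to 27168 under VO. Of the 7 tested macrophage markers, C1qb was called with the lower response in LV (−0.92, adjusted p = 0.04401 in limma), the median over the 7 was −0.52, and their summed FPKM was 40.9 to 44.5 in LV after sham and 36.3 to 39.5 under VO, and 33.8 to 39.9992 in RV after sham and 39.5 to 63.7 under VO. Ryr2 was also a DEG in the sham comparison, lower in LV (−0.94, adjusted p = 0.0356 in limma). The part of these cells in the differences of the channel genes was not tested.

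Members past the unadjusted threshold only were Kcnj11, Kcnq1, Kcnip2, Kcnj3, Kcnj5 and Kcna4 with a higher response in LV, and Kcnj8, Kcnip3 and Kcnd3 with a lower one. Kcnj3 had a difference of 2.05 ± 0.74 (adjusted p = 0.122 in limma), and without VO RV replicate 2, the library with the most Sln, it was 2.63 (adjusted p = 0.0408). Kcnj8 gave −0.61 ± 0.23, the calcium-binding auxiliary subunit Kcnip3 −0.87 ± 0.37 and Kcnd3 −0.50 ± 0.22, with adjusted p of 0.136, 0.171 and 0.182 in limma. For Kcnip3, replicates 1 to 3 gave 0.832, 0.855 and 1.001 FPKM in sham LV and 0.363, 0.611 and 0.406 in VO LV, then 0.646, 0.601 and 0.359 in sham RV and 0.537, 0.565 and 1.43 in VO RV. Kcnip3 was at its highest in VO RV replicate 3.

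None of the 5 differences was called when sham LV replicate 1 or 2, sham RV replicate 1 or 2, or VO LV replicate 2 or 3 was omitted, or when both libraries with Sln were left out, and at most 4 of 13910 genes were called in these cases. Over the 12 omissions of 1 library the log2 difference stayed between 2.1963 and 2.67 for Kcnj2, 1.79 and 2.26 for Kcnj12, 0.80 and 1.14 for Kcng2, 0.71 and 0.93 for Kcnk3, and 0.63 and 0.8956 for Kcnh2, each gene's highest adjusted p in limma being 0.0722 (Kcnj2) to 0.113 (Kcnh2). Without both libraries with Sln the differences were 2.31, 2.01, 0.94, 0.88 and 0.70 in the same order, with adjusted p of 0.0615 to 0.101 in limma. Without VO LV replicate 1 or VO RV replicate 3 only 2 members were called (5.41%, against 1.73% and 0.798% of all genes), and with the Y-linked level in the model 3 were called (8.11%, against 1.27%), Kcnj2 (2.37), Kcnj12 (2.01) and Kcnk3 (0.77), while Kcng2 (0.90, adjusted p = 0.05003 in limma) and Kcnh2 (0.73, adjusted p = 0.0662) were not called.

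Finally, LV and RV were compared under VO. No member was a DEG, against 0.00719% of all genes (1 of 13910), and voom on the recovered reads called 0 members, against 0.00719% of all genes. At the unadjusted threshold 4 members were higher in VO LV (10.8%, against 3.85% of all genes) and 3 were lower (8.11%, against 3.56%). The groups did not overlap in 10 members, 7 higher and 3 lower in VO LV (27%, against 16.1% of all genes). The median log2 difference was 0.04 over the members and 0.01 over all genes. The 4 were Kcnk3 (0.50 ± 0.12 SE), Kcng2 (0.53 ± 0.14), Kcnj12 (0.83 ± 0.23) and Kcnj2 (0.77 ± 0.24), with adjusted p of 0.241 to 0.3103 in limma. The 3 were Kcnn4 (−0.65 ± 0.15), Kcnd3 (−0.58 ± 0.16) and the silent subunit Kcnv2 (−0.46 ± 0.21). The LV values of Kcnv2 were 0.8003, 0.486 and 0.4996 FPKM after the sham operation and 0.381, 0.313 and 0.428 under VO, and its RV values were 0.908, 0.867 and 0.582 and 0.7101, 0.804 and 0.597. Kcnv2 was lowest in VO LV. Without both libraries that held Sln the log2 difference was 0.75 for Kcnj2, 0.51 for Kcnk3 and −0.73 for Kcnd3 (adjusted p = 0.362, 0.309 and 0.243 in limma), and with the Y-linked level in the model it was 0.71, 0.44 and −0.60 (adjusted p = 0.483, 0.399 and 0.428 in limma). Without VO RV replicate 1, 1 member was called (2.7%, against 0.345% of all genes), Kcng2, with a log2 difference of 0.71 and an adjusted p of 0.02696 in limma.

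By family, the 8 tested inward rectifiers (of 15) held 2 of 2 DEGs of the sham comparison and 2 of 5 calls of the difference in responses, with median log2 differences of −0.56 in sham LV against sham RV and 0.71 for the difference in responses. Over all 37 members the shares called were 5.41% and 13.5%, against 3.85% and 4.19% of all genes. The counts by family are small and are given as a description. The 3 tested silent subunits and relatives (of 11), the 2 tested two-pore channels (of 15) and the 1 tested EAG-family gene, Kcnh2 (of 8), each held 1 call of the difference in responses. None of the 9 tested auxiliary subunits (of 13), 7 calcium- and sodium-activated genes (of 12), 3 Shaker-type (of 7), 2 KCNQ (of 5) and 2 Shal-type (of 2) genes was called in any of the 5 comparisons. The median log2 difference between sham LV and sham RV was 0.07 for the auxiliary subunits and 0.13 for the calcium- and sodium-activated genes.

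**Figure D4:**
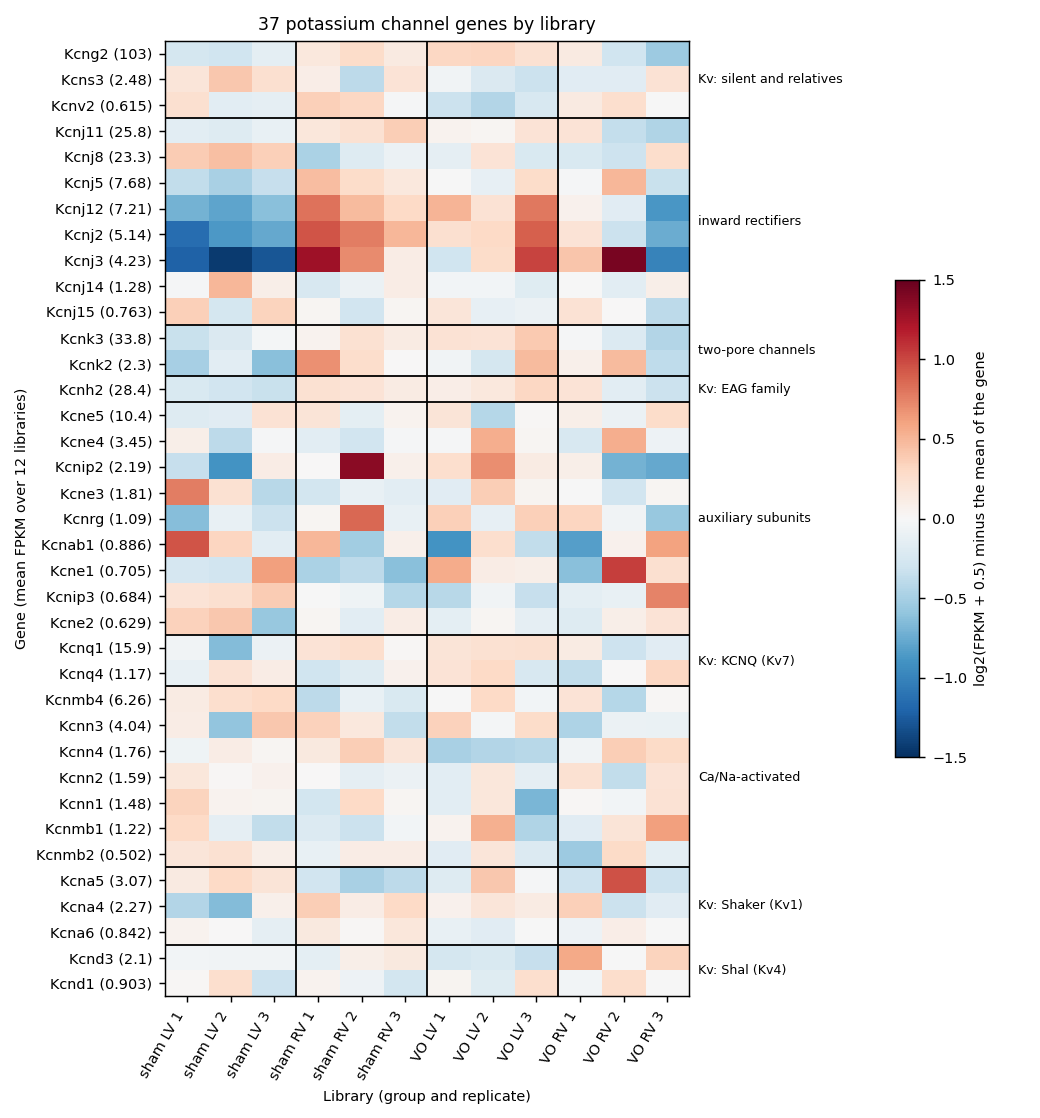
The 37 tested members in the 12 libraries, as log2(FPKM + 0.5) minus the mean of the gene, grouped by family with the mean FPKM in brackets. Red is above and blue below the mean of the gene, and colours saturate at 1.5. Kcnj2, Kcnj12 and Kcnj3 are below their mean in all 3 sham LV libraries and in VO RV replicate 3, and Kcna5 is highest in VO RV replicate 2.

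Partner proteins of potassium channels that are not named Kcn were read from a list of 19 subunits and anchors, of which 11 were tested. In sham LV against sham RV 3 of the 11 were DEGs, against 3.85% of all genes, all lower in sham LV: the pacemaker channel Hcn4 (log2 −1.80), the ankyrin Ank2 (−1.21) and the ankyrin Ank3 (−0.65), with adjusted p of 0.0319, 0.0459 and 0.0431 in limma. None was a DEG in LV or RV under VO or between the ventricles under VO. The difference in responses was called in 3, against 4.19% of all genes, all higher in LV: Hcn2 (1.12), Ank2 (1.69) and Ank3 (0.92), with adjusted p of 0.0409, 0.0474 and 0.04102 in limma. Abcc9, the regulatory subunit that joins Kcnj8 or Kcnj11, was in LV at 41.7 ± 4.89 FPKM after sham and 48.6 ± 3.08 under VO, and in RV at 47.0 ± 4.93 and 38.3 ± 2.06 (SD, n = 3 each), and Abcc8 was at 10.2 to 11.1 FPKM on average. Of 12 regulators of channel transcription or turnover, all tested, Gata4 (log2 −0.77, adjusted p = 0.0343 in limma) was lower and the kinase Sgk1 (0.46, 0.0493) higher in sham LV than in sham RV, and none was called in the other 4 comparisons. Under the omissions of 1 library named above that left no member called, at most 5 of 13910 genes were called in the sham comparison and at most 4 for the difference in responses. The factors Irx4 and Irx5, known for shaping the transmural gradient of potassium channels, had sham differences of 0.07 and −0.33 with adjusted p of 0.835 and 0.726 in limma.

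Gene length moved with the comparisons. Across all tested genes the correlation of the log2 difference with log2 gene length was −0.214 in the sham comparison, 0.188 for the LV response, −0.140 for the RV response and 0.204 for the difference in responses, and across the 37 members it was −0.162, −0.0755, −0.259 and 0.0673. After removal of the length trend of each library, both sham calls and 4 of the 5 calls of the difference in responses were left (5.41% and 10.8%, against 3.37% and 2.83% of all genes), with Kcnh2 at 0.66 on the log2 scale and an adjusted p of 0.0568 in limma. No tested member overlapped another gene that reached a mean FPKM of 0.5, and 5 overlapped a listed gene below that level.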

How the data were processed

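The authors aligned reads from poly(A)-selected libraries with HISAT2, counted them per gene with featureCounts and deposited FPKM per gene and library. The submitters' processing notes name HISAT2 2.0.5, featureCounts 1.5.0-p3, StringTie 1.3.3b, DESeq2 1.20.0 and GATK 3.7. The genome build, annotation release and strand setting are not given in the sources used here, so antisense reads cannot be told apart. Values under 200 reads were whole multiples of 1 read per library within 0.02 in 100% of cases, which gave back the reads, and 0 columns were left unmapped. The total by which a library had been scaled was 0.967 to 1.12 times its reads on genes. It was therefore not the number of mapped reads, and how it was set is not given in the sources used here.

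The deposited FPKM were rescaled by median-ratio size factors, which lay between 0.996 and 1.00 and so changed little. Then log2(FPKM + 0.5) was taken for the 13910 genes averaging at least 0.5 FPKM. A single linear model of the 4 groups was fitted by limma 3.58.1 under R 4.3.3, with moderated variances that follow the mean level. Fold changes are on this scale, which understates changes of low genes. DEGs needed a fold change over 1.3 and a p under 0.05 after Benjamini-Hochberg adjustment, as in the study. Exact two-sided permutation tests were run on the FPKM of single members. The main test used FPKM, as deposited, and voom on the recovered reads was an alternative. The procedure was tested on simulated data. Positions of promoters are RefSeq coordinates (GRCr8).

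The genes given by value are the called ones, the 12 with the highest mean FPKM, up to 3 per comparison and direction with the smallest unadjusted p, and a list of cardiac repolarisation genes. Of the genes with this name, 1 is not reported here: it stayed in the model but is in no count or sum of members. The members and lists were chosen with earlier results of these data known. The alternatives were other scalings, pseudocounts, filters, samples in the fit, blocks, variance models, thresholds, covariates, voom on recovered reads, removal of the gene-length trend and each library left out. Leaving out both libraries with atrial transcripts was added after the data were seen.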

Additional observations from a re-analysis of the deposited data

Results flagged for a closer look

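The response to VO differed between LV and RV, by the test of the difference itself in limma, for 5 of 37 potassium channel genes (13.5%, against 4.19% of all genes). None of the 5 was called under several omissions of 1 library given above, or with both libraries that held Sln left out. The LV response minus the RV response was 2.43 for Kcnj2 and 2.07 for Kcnj12 on the log2 scale (adjusted p = 0.0249 for both in limma). It was 0.96 for Kcng2 and 0.83 for Kcnk3 (adjusted p = 0.0319 for both in limma) and 0.75 for Kcnh2 (adjusted p = 0.0383 in limma). All VO LV values of these genes were above all sham LV values. The VO RV values were below all sham RV values for Kcnj2, Kcnj12, Kcng2 and Kcnk3 and overlapped them for Kcnh2.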

How the results depend on the processing

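In 765 recalculations of 28 named gene differences, none changed direction, 650 stayed on the same side of the threshold, 77 lost the call and 38 gained it. Only the 2 sham calls and the 5 calls of the difference in responses could lose a call. The 650 therefore include differences that were uncalled and stayed uncalled. The 28 were picked in part for a small unadjusted p, which makes a change of direction unlikely. The called members were 2 in the sham comparison, 0 for the LV response, 0 for the RV response, 0 between LV and RV under VO and 5 for the difference in responses. In the same order, the counts were 13, 11, 5, 7 and 14 with an unadjusted p and the fold change. In the sham comparison they were 4 with quantile normalization (10.8%, against 4.57% of all genes), 0 with all genes above 0 (against 0.037%), 4 at a mean FPKM of at least 1 (14.3%, against 4.71%), 6 with only the groups compared (16.2%, against 2.26%), 9 with array weights (24.3%, against 9.5%), 5 with voom on recovered reads (13.5%, against 4.92%), 7 with the atrial covariate (18.9%, against 6.71%) and 0 with both libraries with atrial transcripts left out (against 0.0503%). For the LV response they were 1 with a pseudocount of 0.1 (2.7%, against 0.403% of all genes), 2 at a mean FPKM of at least 1 (7.14%, against 1.44%), 3 with only the groups compared (8.11%, against 0.855%), 5 with array weights (13.5%, against 5.06%), 2 with voom (5.41%, against 2.44%) and 2 with the atrial covariate (5.41%, against 2.63%). For the difference in responses they were 1 with all genes above 0 (1.14%, against 0.0972% of all genes), 3 with the Y-linked covariate (8.11%, against 1.27%), 7 with the atrial covariate (18.9%, against 8.73%) and 0 with both libraries with atrial transcripts left out (against 0.0144%). The cause of these shifts was not tested. With 1 library left out the counts ranged from 0 to 7 in the sham comparison, 0 to 6 for the LV response, 0 to 0 for the RV response, 0 to 1 between LV and RV under VO and 0 to 7 for the difference in responses, beside 0% to 6.25%, 0% to 3.98%, 0% to 0.00719%, 0.00719% to 0.345% and 0% to 7.21% of all genes. With the replicate number as a replicate block, the counts were 0 in the sham comparison and 0 for the difference in responses, and also 0 and 0 with treatment and number together as the block, beside 0.0216% and 0.00719% of all genes in the former and 0% in the latter. With the number as the block Kcnj2 was at −1.66 in the sham comparison and 2.43 for the difference in responses (adjusted p = 0.0741 and 0.0637 in limma). The labels do not say that a number marks 1 animal, and the number was not taken as a pairing. Same-numbered LV and RV libraries of the same treatment were correlated in their deviations from the group means. For replicates 1 to 3, r was 0.0446, 0.0377 and 0.123 in sham and 0.0535, −0.0509 and −0.218 under VO. Presence of Y-linked transcripts was alike in 5 of the 6 same-numbered LV and RV pairs, the 3 sham pairs included, and differed for VO replicate 3, so whether the other pairs share a heart cannot be told. Low members rest on few reads: Kcne1 had 2 reads in its lowest library.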

Other observations

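Some pairs of subunits that assemble together differed in their ratio between groups, which is given as a description. The ratio of Kcnj12 to Kcnj2 averaged 1.81 in sham LV and 1.48 in VO LV, and 1.24 in sham RV and 1.44 in VO RV. That of Kcnj5 to Kcnj3 averaged 5.36 in sham LV (4.99 to 5.68), 1.93 in VO LV (1.28 to 2.86), 1.72 in sham RV (1.21 to 2.33) and 2.29 in VO RV (1.102 to 4.17). The ratio of Kcnd3 to Kcnip2 averaged 1.57 in sham LV and 0.618 in VO LV, and 0.815 in sham RV and 2.18 in VO RV, and the VO LV libraries (0.482 to 0.698) did not overlap the VO RV libraries (1.57 to 2.91).

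Over the 37 members centred by gene, 7 of the 12 libraries were most like a library of another group. The library most like VO RV replicate 3 was sham LV replicate 1 (r = 0.722 over 37 genes), and the library most like VO LV replicate 3 was sham RV replicate 1 (r = 0.695 over 37 genes). These correlations are across genes, which are not independent replicates.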
